A study of Mus musculus with 6 samples.

Results

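The D cyclins, the CDK inhibitors and the pocket proteins were examined in MuSCs, the stem cells that rebuild skeletal muscle, from control and Taf4asKO mice. The 10 genes were taken by symbol from the deposited table of 22081 genes, and each matched 1 row. They comprised 3 D cyclins (Ccnd1, Ccnd2, Ccnd3), 4 CDK inhibitors (Cdkn1b, Cdkn1c, Cdkn2c, Cdkn2d) and 3 pocket proteins (Rb1, Rbl1, Rbl2). RNA-seq was performed on total RNA of freshly sorted MuSCs with 3 libraries in each of 2 groups, all on a C57BL/6 background. Taf4asKO mice carried loxP-flanked alleles of Taf4 (formerly Taf4a, a subunit of the transcription factor TFIID) and a tamoxifen-inducible Cre recombinase under Pax7, and received tamoxifen as adults. Whether the mice of the control libraries received it is not stated in the sources used here. Per the study's methods, control mice were littermates that carried the same floxed alleles, with or without the Cre allele, and mice of either group could carry a Pax7-zsGreen reporter. The study gives an age range for its adult mice and states that males and females were used. Whether each control library came from a mouse with the Cre allele, and the age and sex of each mouse, is not stated in the sources used here. Cells were sorted from limb and trunk muscle as negative for SCA1, CD45 and CD31 and positive for integrin alpha-7 or the reporter. The sorted cells were not fully pure when the study reanalysed them, so other cells can contribute RNA, whether or not they pass this gate.

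These genes form the switch that decides whether a cell leaves quiescence and enters S phase. D cyclins activate the kinases CDK4 and CDK6, which phosphorylate the pocket proteins and thereby release E2F transcription factors and their target genes. Inhibitors of the INK4 family, to which Cdkn2c and Cdkn2d belong, bind CDK4 and CDK6, whereas those of the CIP/KIP family, to which Cdkn1b and Cdkn1c belong, bind assembled cyclin-CDK complexes. In resting MuSCs these brakes are known to help hold the cells out of the cell cycle, and CIP/KIP inhibitors also accompany the cell cycle exit of differentiating myoblasts.

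The values are normalized counts: reads per gene divided by a size factor for each library and rounded to whole numbers. They summed to 12338676 to 14551732 per library (10.6 to 17.6 M estimated reads), and 11.1% to 20.7% of them were mitochondrial. Taf4, the targeted gene, had a mean of 541.7 ± 67.8 (SD, n = 3) normalized counts in the control group and 590 ± 35.8 in Taf4asKO libraries (log2 fold change 0.13, limma adjusted p 0.524). Across the alternative fits described below, its log2 fold change ranged from 0.043 to 0.22. The gene total sums reads over all exons, so the deleted exons cannot be seen in it and it does not check the labels. The sample titles call the groups WT and Taf4a-KO, and these groups are named control and Taf4asKO throughout. The stem cell marker Pax7 had 12082 to 13007 normalized counts in the control group and 10363 to 11164 in Taf4asKO libraries, and the 10 stem cell markers examined summed to 53179 to 58142 and 50508 to 51927, with 4 lower and 2 higher past the threshold given below. Markers of other cells moved with the groups. Of 6 Schwann and glial markers 4 were higher, with summed counts of 1523 to 3417 in control and 4067 to 4903 in Taf4asKO libraries. Of 6 smooth muscle and pericyte markers 2 were higher (9444 to 14817 against 14947 to 17599). The 10 fibro-adipogenic markers were split. Col3a1, Dpt and Cd34 were lower, with log2 fold changes of -1.58, -1.69 and -1.97, whereas the other 7 had log2 fold changes from 0.54 (Ly6a) to 1.24 (Lum) and did not pass. The median of this list was 0.83, while its summed counts ran from 59184 to 100058 in control and from 43998 to 76797 in Taf4asKO libraries. None of 8 endothelial markers passed (225 to 555 against 576 to 1057, 5 with a limma p under 0.05 before adjustment), and of 8 immune markers 4 were in the table, 1 of them lower (434 to 547 against 667 to 926). Of 8 early genes that respond to cell dissociation 5 were higher (229533 to 273389 against 345436 to 438114). When replicate number was a block, more of these markers were higher: 6 of the Schwann and glial, 4 of the smooth muscle and pericyte, 6 of the fibro-adipogenic (beside 3 lower), 3 of the endothelial and 1 of the immune markers (Lyz2, beside 1 lower), and 6 of the early genes. With the block 9.09% of all genes tested were higher past the threshold, against 5.93% without it. The part of these other cells and early genes in the results below was not tested.

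Levels were first compared between genes as normalized counts per kilobase of exon, with exon lengths joined over all transcripts of a gene. In control libraries Cdkn1c (1600 ± 1270, SD, n = 3) and Ccnd1 (659 ± 92.5) had the highest levels, and their ranges overlapped. Cdkn1b (319 ± 6.45) and Ccnd3 (167 ± 18.2) followed, each apart from its neighbours. Next came Cdkn2d (92.1 to 106.1), Rb1 (89.1 ± 20.5), Cdkn2c (83.5 ± 12.1) and Rbl2 (81.9 ± 4.55), whose order was within the spread between libraries, although Cdkn2d lay above Rbl2 in each of the 3. Ccnd2 (22.5 ± 8.6) and Rbl1 (19.5 ± 8.53) were lowest and overlapped. In Taf4asKO libraries Ccnd1 (425 ± 67.6), Cdkn1c (416 ± 132) and Cdkn1b (378 ± 21.5) overlapped at the top, and Ccnd2 (42.9 ± 7.16) was separated from Rbl1 (18.8 ± 1.44).

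The comparison of both groups asked which of these regulators differ between control and Taf4asKO libraries. Ccnd1 and Cdkn1c were lower and Ccnd2 was higher in Taf4asKO libraries, so that 3 of 10 members passed the threshold (limma on log2(value + 1), Benjamini-Hochberg adjusted p under 0.05 over 18562 genes and a fold change of at least 1.3). Among all genes tested 12.6% passed, 6.71% lower and 5.93% higher. The groups did not overlap for 6 members, 2 lower and 4 higher, compared with 33.0% of all genes tested, 16.4% lower and 16.6% higher. The median log2 fold change of the members was 0.18 (0.067 without control replicate 3), against 0.004 for all genes, and their median absolute log2 fold change was 0.26, against 0.31. Before adjustment 5 members had a limma p under 0.05 (28.8% of all genes), and 3 had an adjusted p under 0.05 at any fold (13.1%). In a limma fit with replicate number as a block, 3 members passed (18.1% of all genes), 2 lower (8.98%) and 1 higher (9.09%), and 4 had an adjusted p under 0.05 at any fold (19.7%). By size of change the 10 genes as a list did not stand above the rest of the table. All 10 had a mean of at least 5 normalized counts and were tested. Since MuSCs were profiled in bulk, fewer cells that express a gene and less RNA per cell cannot be told apart.

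**Figure D1:**
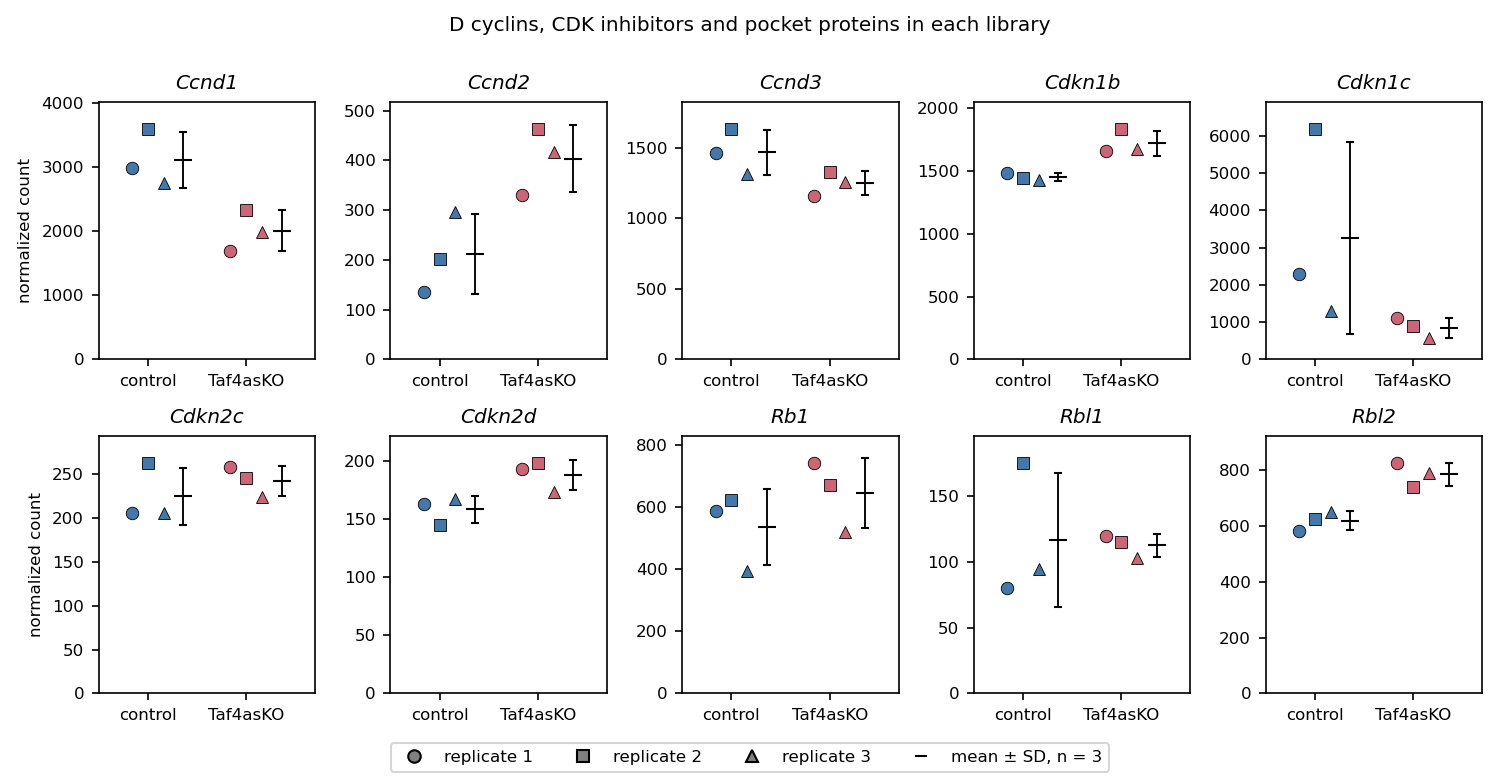
Normalized counts (y axes, starting at 0) of the 10 members in control (blue) and Taf4asKO (red) libraries, with a symbol for each replicate number and the mean ± SD (n = 3) in black. Ccnd1 and Cdkn1c lie lower and Ccnd2, Cdkn1b, Cdkn2d and Rbl2 higher in each Taf4asKO library than in each control library, and Cdkn1c reaches 6177 in control replicate 2.

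Among the D cyclins, Ccnd1 (ENSMUSG00000070348, mm10 chr7:144929931-144939869, cyclin D1, which links growth factor signals to CDK4 and CDK6) was the most abundant. It had 2979, 3586 and 2741 normalized counts in control replicates 1, 2 and 3, against 1694, 2330 and 1985 in the respective Taf4asKO replicates. Each Taf4asKO library was below each control library, and the mean fell from 3102 ± 435.7 to 2003 ± 318.4, a ratio of 0.646. The log2 fold change was -0.63 (SE 0.14, 95% interval -0.94 to -0.33, limma adjusted p 0.0156). The call was lost without Taf4asKO replicate 1 (-0.52, limma adjusted p 0.0628) and without Taf4asKO replicate 3 (-0.63, 0.0636).

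Ccnd2 (ENSMUSG00000000184, chr6:127125162-127151060, cyclin D2, an alternative partner of the same kinases) moved the other way. It had 136, 202 and 297 normalized counts in the control group and 330, 463 and 417 in Taf4asKO replicates 1 to 3. The groups did not overlap, but control replicate 3 came close to Taf4asKO replicate 1. The mean rose from 211.7 ± 80.93 to 403.3 ± 67.55, with a log2 fold change of 0.98 (SE 0.25, 95% interval 0.43 to 1.54, limma adjusted p 0.0292). This call rested on all libraries but control replicate 3. The limma adjusted p was 0.0547 without control replicate 1, where the log2 fold change was 0.70, and 0.0538 without control replicate 2. It was 0.0542, 0.125 and 0.105 without Taf4asKO replicates 1, 2 and 3.

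Ccnd3 (ENSMUSG00000034165, chr17:47505051-47599691, cyclin D3) had 1463, 1633 and 1314 normalized counts in the control group and 1161, 1329 and 1258 in Taf4asKO libraries. Its groups overlapped, it was lower in 3 of 3 same-numbered pairs, and it did not pass (log2 fold change -0.23, SE 0.11, limma adjusted p 0.193).

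The make-up of the D cyclins was then compared within each library, which does not depend on how libraries are scaled. Per kilobase, Ccnd1 made up 76.3% to 78.6% of the 3 D cyclins in control and 68.2% to 71.1% in Taf4asKO libraries. Ccnd2 made up 1.8% to 4.1% and 6.7% to 7.3%, and Ccnd3 19.2% to 20.5% and 21.8% to 25.1%. None of these ranges overlapped between groups. The log2 ratio of Ccnd1 to Ccnd2 was 4.94 ± 0.65 in control and 3.31 ± 0.056 in Taf4asKO libraries (SD, n = 3; difference -1.62). That of Ccnd1 to Ccnd3 was 1.97 ± 0.056 and 1.57 ± 0.13 (difference -0.40), and that of Ccnd3 to Ccnd2 was 2.96 ± 0.65 and 1.74 ± 0.15 (difference -1.22). The exact two-sided permutation test gave p = 0.1 for each of the 3 ratios (0.175 after adjustment over the 7 ratios tested), which is the smallest p that 3 against 3 libraries allow. Ccnd1 thus remained the most abundant D cyclin per kilobase in all 6 libraries. The summed D cyclin level ran from 763.4 to 969.1 per kilobase in control and from 527.1 to 695.5 in Taf4asKO libraries.

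**Figure D2:**
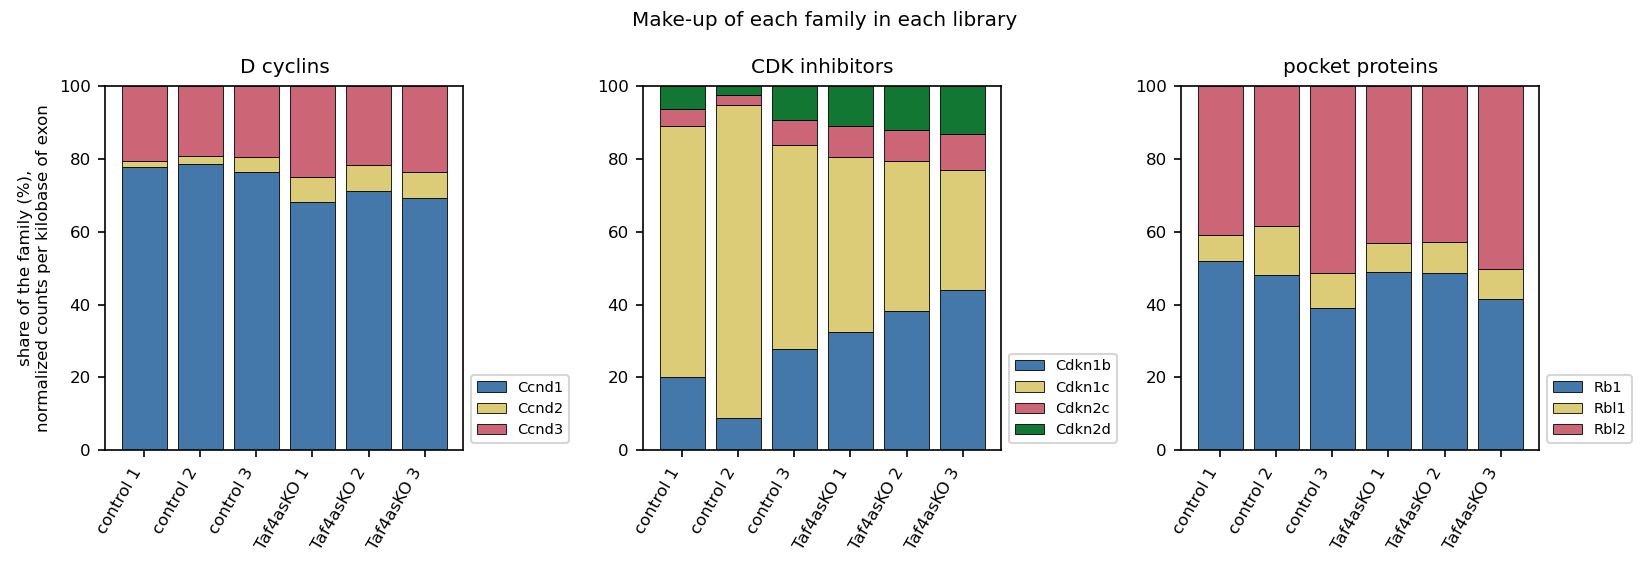
Share of each gene in its family (y axis, percent of the family's summed normalized counts per kilobase of exon) in each of the 6 libraries, for the D cyclins, the CDK inhibitors and the pocket proteins. Ccnd2 takes 6.7% to 7.3% of the D cyclins in Taf4asKO libraries and 1.8% to 4.1% in control, and Cdkn1c takes 33.0% to 48.1% of the inhibitors and 55.9% to 85.7%.

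Of the CIP/KIP inhibitors, Cdkn1c (ENSMUSG00000037664, chr7:143458339-143461050, p57, an imprinted gene that accompanies cell cycle exit in muscle differentiation) had the largest difference of the 10 members. It had 2297, 6177 and 1284 normalized counts in control replicates 1, 2 and 3, against 1101, 879 and 564 in the respective Taf4asKO replicates. Control replicate 2, which also had the highest mitochondrial share (20.7%), stood far above the other libraries, while control replicate 3 was close to Taf4asKO replicate 1. The means were 3253 ± 2583 and 848 ± 269.8, and the log2 fold change was -1.69 (SE 0.46, 95% interval -2.71 to -0.66, limma adjusted p 0.039). Without control replicate 2 the log2 fold change was -1.07 and still passed (limma adjusted p 0.0453). The call was lost without control replicate 1 (-1.78, 0.0576) and without Taf4asKO replicates 1 (-1.90, 0.0723), 2 (-1.74, 0.108) and 3 (-1.42, 0.143). Without control replicate 3 it was -2.20 (0.00916).

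Several markers of commitment and of cycling cells shared the high value in control replicate 2. Myog, a transcription factor of differentiating myoblasts, had 1846, 3642 and 910 normalized counts in control replicates 1, 2 and 3, against 765, 441 and 293 in the respective Taf4asKO replicates. The fusion gene Mymk had 241, 476 and 129 against 47, 40 and 19, and the proliferation marker Mki67 had 1087, 2232 and 727 against 250, 427 and 189. All 3 were highest in control replicate 2 and lower in each Taf4asKO library than in each control library. Their log2 fold changes were -1.98, -2.86 and -2.15 (limma adjusted p 0.0188, 0.0035 and 0.00602). Myog lost its call without Taf4asKO replicate 2 or 3. Over the whole lists, 4 of 8 cycling markers fell and 0 rose, with summed counts of 1116 to 3226 in control and 328 to 690 in Taf4asKO libraries. The 4 were Mki67, Top2a, Cdk1 and Ccnb2. Of these, Mki67 alone kept its call without Taf4asKO replicate 3, and Top2a and Cdk1 lost theirs without Taf4asKO replicate 1. Cdk1 also lost its call without control replicate 2, and Ccnb2 without control replicate 1 or Taf4asKO replicate 2. When replicate number was a block, 6 of the 8 fell, while the share of all genes that were lower went from 6.71% to 8.98%. Of 6 commitment markers 2 fell and 0 rose (3130 to 8598 against 2978 to 5007). When replicate number was a block 1 of them rose, namely Mef2c, a muscle transcription factor (log2 fold change 0.61, limma adjusted p 0.0199, against 0.109 without the block). Myod1, a marker of activated MuSCs, did not pass (log2 fold change 0.37, limma adjusted p 0.378; 0.12 without control replicate 3 and 0.62 without control replicate 2). The part of these cell states in the difference of Cdkn1c was not tested.

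**Figure D3:**
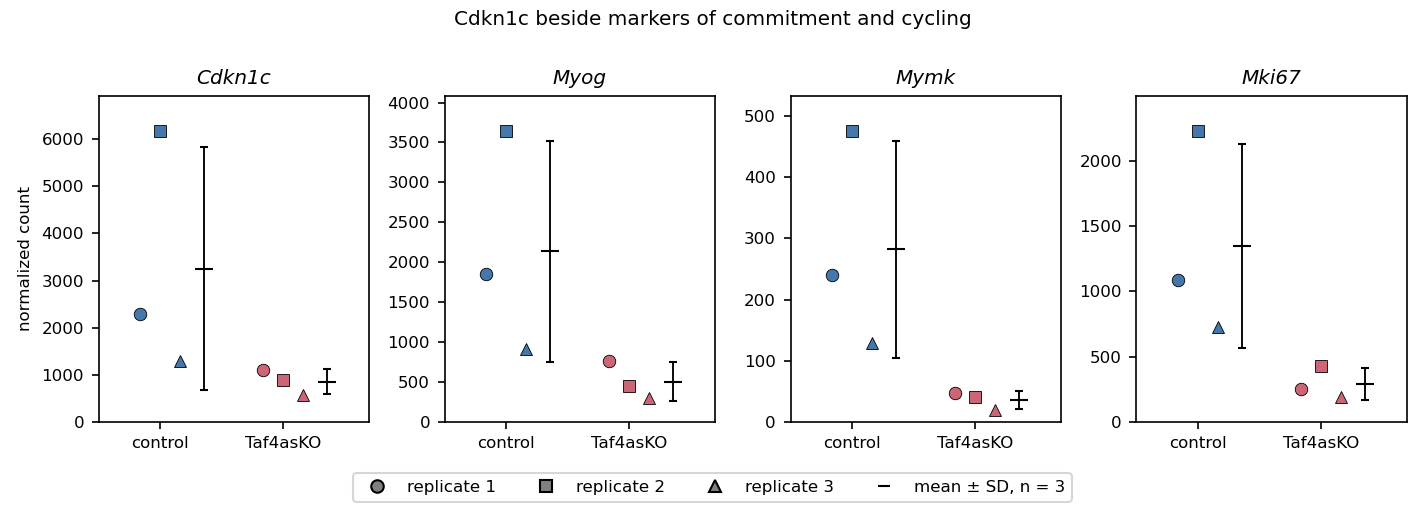
Normalized counts (y axes, starting at 0) of Cdkn1c, Myog, Mymk and Mki67 in control (blue) and Taf4asKO (red) libraries, with a symbol for each replicate number and the mean ± SD (n = 3) in black. Control replicate 2 is highest for each of the 4 genes, with 6177, 3642, 476 and 2232.

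Cdkn1b (ENSMUSG00000003031, chr6:134920401-134925513, p27, which holds cyclin-CDK complexes inactive in quiescent cells) showed little spread. It had 1485, 1447 and 1427 normalized counts in the control group and 1658, 1834 and 1673 in Taf4asKO libraries. Each Taf4asKO library was above each control library, with means of 1453 ± 29.46 and 1722 ± 97.57. The log2 fold change of 0.24 (SE 0.09, 95% interval 0.043 to 0.44, limma adjusted p 0.106) did not pass, and it was below the fold limit. Per kilobase, Cdkn1b made up 9.0% to 27.9% of the 4 inhibitors in control and 32.4% to 43.9% in Taf4asKO libraries. The log2 ratio of Cdkn1b to Cdkn1c was -1.79, -3.25 and -1.01 in the control group and -0.57, -0.098 and 0.41 in Taf4asKO libraries, a difference of 1.93 (exact permutation p = 0.1, adjusted 0.175), and the groups did not overlap.

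Neither INK4 inhibitor passed. Cdkn2d (ENSMUSG00000096472, chr9:21288410-21291308, p19 INK4d) had 163, 145 and 167 normalized counts in the control group and 193, 198 and 173 in Taf4asKO libraries, without overlap between groups. It did not pass (log2 fold change 0.25, SE 0.14, limma adjusted p 0.284). Cdkn2c (ENSMUSG00000028551, chr4:109660876-109667189, p18 INK4c) had 206, 262 and 205 against 258, 245 and 224, with overlapping groups (0.12, SE 0.14, limma adjusted p 0.639). The summed level of the 4 inhibitors relative to the 3 D cyclins gave log2 ratios of 0.56 to 1.87 in control and 0.46 to 1.09 in Taf4asKO libraries, and these overlapped (exact permutation p = 0.5, adjusted 0.583).

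None of the 3 pocket proteins passed, although Rbl2 had a limma p under 0.05 before adjustment. Rbl2 (ENSMUSG00000031666, chr8:91070057-91123844, p130, the pocket protein that prevails in quiescent cells and joins the repressive DREAM complex) had 582, 625 and 650 normalized counts in the control group and 825, 741 and 791 in Taf4asKO libraries. Each Taf4asKO library was above each control library, with means of 619 ± 34.39 and 785.7 ± 42.25, and the spread within groups was small. The log2 fold change was 0.34 (SE 0.10, 95% interval 0.12 to 0.57, limma adjusted p 0.0511), short of the fold limit as well. When replicate number was a block the adjusted p was 0.0381, and the fold change still kept Rbl2 from passing.

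Rb1 (ENSMUSG00000022105, chr14:73195502-73325822, pRB, the founding pocket protein) had 590, 623 and 395 normalized counts in the control group and 742, 673 and 522 in Taf4asKO libraries. The groups overlapped, replicate 3 was the lowest library in each, and Rb1 was higher in 3 of 3 same-numbered pairs (log2 fold change 0.28, SE 0.19, limma adjusted p 0.357). It was 0.075 without control replicate 3 and 0.43 without Taf4asKO replicate 3, and passed in neither fit. Rbl1 (ENSMUSG00000027641, chr2:157145893-157204512, p107, itself an E2F target gene) had 80, 175 and 95 against 120, 115 and 103. The control libraries enclosed all Taf4asKO libraries (0.031, SE 0.27, 95% interval -0.56 to 0.62, limma adjusted p 0.956), and control replicate 2 was the highest, as for Cdkn1c. The direction of Rbl1 was not stable when a library was left out. The lowest Rbl1 value rests on an estimated 69 reads, for which counting error alone is 12%. The log2 ratios of Rbl2 to Rb1 (-0.095 ± 0.42 and -0.032 ± 0.26) and of Rbl1 to Rb1 (-2.25 ± 0.55 and -2.50 ± 0.15) overlapped between groups (exact permutation p = 0.6 and 0.5, adjusted 0.6 and 0.583).

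**Figure D4:**
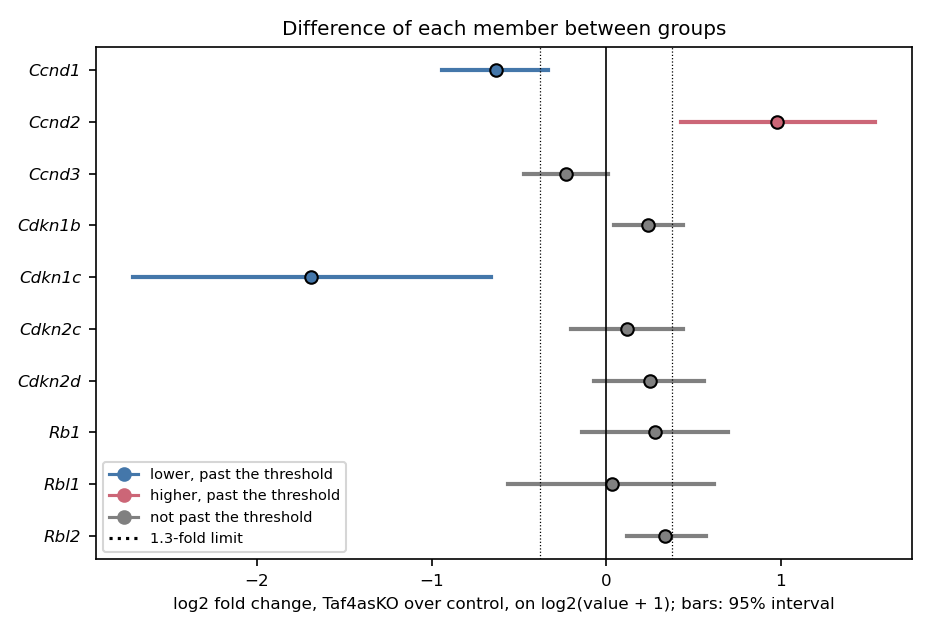
Log2 fold change of each member (x axis, Taf4asKO over control on log2(value + 1)) with its 95% interval from limma; dotted lines mark the 1.3-fold limit. Ccnd1 (-0.63) and Cdkn1c (-1.69) passed as lower and Ccnd2 (0.98) as higher, and the intervals of Cdkn1b and Rbl2 exclude 0 without a call after adjustment.

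Promoter sequence was examined for the members with windows in the RefSeq table (GRCm38.p6), which gave 8 windows for 6 members: Ccnd3, Cdkn1b, Cdkn2c, Cdkn2d, Rbl1 and Rbl2. The promoters of Ccnd1, Ccnd2, Cdkn1c and Rb1 were not analysed here. The 250 bases before the transcript start were searched on both strands for the CCAAT box (CCAAT), which binds NF-Y, a factor that the study links to TAF4A; for the E2F site (TTTCCCGC, TTTGGCGC, TTTCGCGC or TTTGCCGC); for the CHR element of DREAM targets (TTTGAA); and for the CRE (TGACGTCA). A CCAAT box was found in 3 of the 8 windows, compared with 33.8% of 32851 windows in the table. Cdkn1b held 2, starting 161 and 35 bases before the start, and Cdkn2d held 1 on the other strand at 220. The second window of Ccnd3 held 1 at 108. An E2F site was found in 1 window, that of Rbl1, 18 bases before the start (1.86% of all windows), a CHR match in 1, that of Rbl2 (16.0%), and a CRE in 0 (1.55%). The windows of Cdkn1b (chr6:134920151-134920400, plus strand), Cdkn2d (chr9:21291210-21291459, minus strand) and Rbl1 (chr2:157204535-157204784, minus strand) are shown because they carry a CCAAT box in an inhibitor without overlap between groups or the E2F site; capitals mark the matches.
Cdkn1b: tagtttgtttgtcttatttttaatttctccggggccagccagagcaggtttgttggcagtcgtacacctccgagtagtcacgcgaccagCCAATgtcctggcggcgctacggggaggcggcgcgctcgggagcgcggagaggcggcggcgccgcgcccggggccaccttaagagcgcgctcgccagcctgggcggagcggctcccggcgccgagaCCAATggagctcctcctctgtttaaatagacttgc
Cdkn2d: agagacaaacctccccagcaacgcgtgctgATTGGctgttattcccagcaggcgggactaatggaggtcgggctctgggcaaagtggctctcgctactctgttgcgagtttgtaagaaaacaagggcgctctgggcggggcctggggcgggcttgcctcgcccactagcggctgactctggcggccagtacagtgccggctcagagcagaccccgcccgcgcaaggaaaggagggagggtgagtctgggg
Rbl1: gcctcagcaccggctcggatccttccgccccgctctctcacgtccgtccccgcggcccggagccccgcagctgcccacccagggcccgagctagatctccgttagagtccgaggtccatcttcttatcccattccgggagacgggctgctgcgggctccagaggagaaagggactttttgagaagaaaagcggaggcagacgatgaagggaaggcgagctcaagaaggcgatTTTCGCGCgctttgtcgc
A match describes the letters of a window and shows no binding. The 3 members past the threshold were not among those searched, so matches could not be set against calls.

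The genes around the switch were then counted by list. Of 4 other genes with the symbol of a CDK inhibitor (Cdkn) 1 rose: Cdkn1a (p21, a CIP/KIP inhibitor and p53 target) had 1058, 589 and 660 normalized counts in the control group and 3330, 1797 and 1700 in Taf4asKO libraries. Its log2 fold change was 1.54 (limma adjusted p 0.00553), the opposite direction to Cdkn1c. Cdkn2a, Cdkn2b and Cdkn3 had log2 fold changes of 0.27, 0.53 and -0.99 and did not pass.

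Of 9 G1 kinases, E cyclins and their activators 2 fell and 0 rose. Cdk2, the partner of E cyclins and a target of p27 and p57, fell from 408.3 ± 45.3 to 218.3 ± 45.6 normalized counts (log2 fold change -0.92, limma adjusted p 0.00756). Cdc25a, a phosphatase that activates CDK2, had a log2 fold change of -0.69 (0.0189), and lost its call without any 1 of the Taf4asKO libraries, so that 1 gene of this list then passed. The partners of the D cyclins did not pass: Cdk4 had a log2 fold change of -0.26 (limma adjusted p 0.254) and Cdk6 one of -0.20 (0.34). Cdk4 was at -0.097 without control replicate 2 and Cdk6 at -0.12 without Taf4asKO replicate 3.

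Of 10 E2F and DP factors 4 fell and 0 rose. The activator E2f2 had 545, 681 and 431 normalized counts in the control group and 151, 121 and 121 in Taf4asKO libraries, a log2 fold change of -2.05 (limma adjusted p 0.00016). The groups lay far apart, and E2f2 kept its call in each of 19 alternatives. E2f3 (-0.93), E2f1 (-1.28) and the repressor E2f8 (-2.13) also fell (limma adjusted p 0.00366, 0.0224 and 0.0224). E2f4 (-0.14) and E2f5 (0.05), which pair with Rbl1 and Rbl2 in resting cells, did not pass. Without Taf4asKO replicate 2 the number was 2, since E2f1 and E2f8 lost their calls. E2f1 also lost its call without control replicate 1 or Taf4asKO replicate 3, and E2f8 without control replicate 2 or Taf4asKO replicate 1. Of the 7 genes of the DREAM complex and its MuvB core 0 passed in limma or in limma-voom, and 3 had an unadjusted p under 0.05 in each.

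Of the 15 E2F target genes of DNA replication reported here 4 fell (Ccna2, Mcm2, Mcm3 and Mcm6, with log2 fold changes from -1.56 to -0.86) and 0 rose in limma, and 8 and 1, respectively, had an unadjusted p under 0.05. The median of these 15 was -0.41. Without Taf4asKO replicate 1 or 3 the number that fell was 1. When replicate number was a block 5 fell and 1 rose, namely Pcna (log2 fold change 0.4, limma adjusted p 0.045, against 0.0854 without the block), which was named after its values were seen.

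Of 9 tested genes that turn over p27 or D cyclins, Skp2 fell and Cul1 rose. Skp2, which marks p27 for destruction, had 451, 482 and 462 normalized counts in the control group and 212, 258 and 262 in Taf4asKO libraries (log2 fold change -0.93, limma adjusted p 0.00161). Cul1, the scaffold of the same ubiquitin ligase, had a log2 fold change of 0.48 (0.0181), and lost its call without Taf4asKO replicate 2 or 3. Ambra1, which directs the destruction of D cyclins, did not pass (-0.076, limma adjusted p 0.68).

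**Figure D5:**
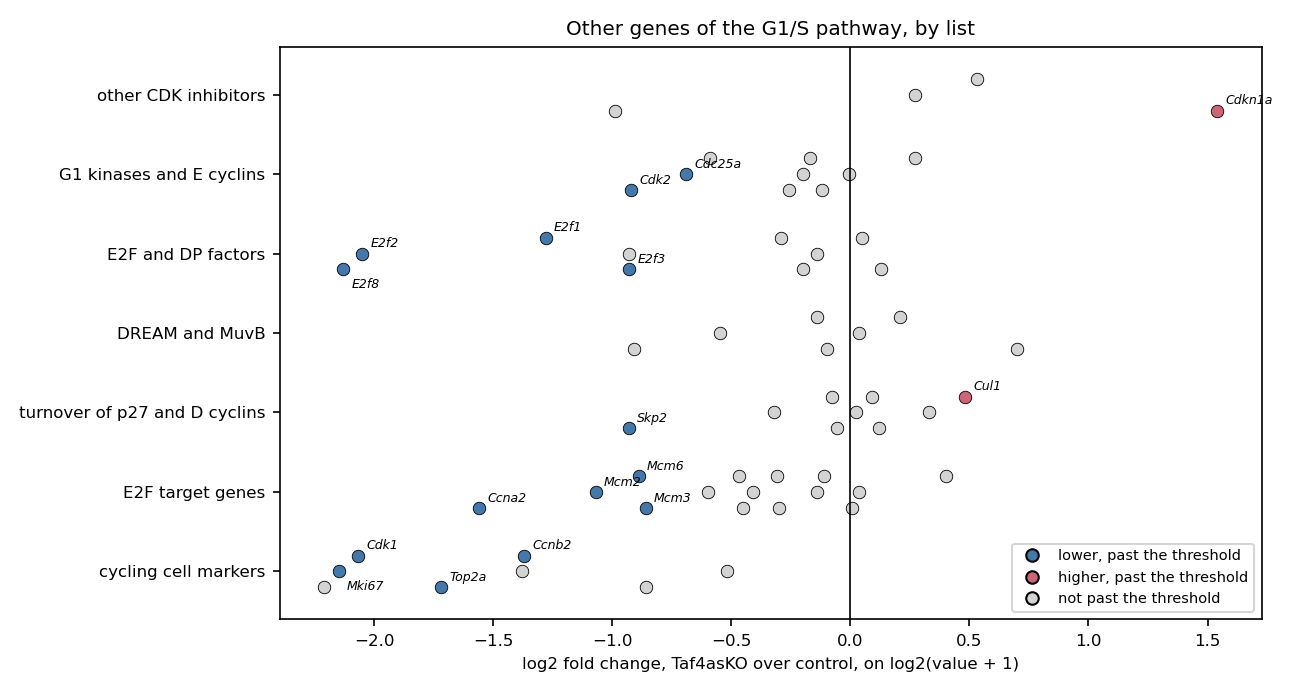
Log2 fold change (x axis, Taf4asKO over control on log2(value + 1)) of the genes in 7 lists around the G1/S switch (rows); each point is a gene, and those past the threshold are coloured and named. E2f2 (-2.05) lies far to the left and Cdkn1a (1.54) to the right, and the DREAM and MuvB row has no coloured point.

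For a comparison of patterns, genes whose symbol is a Gm number or a Rik name were left out. The genes most like 3 of the members across the 6 libraries were found by Pearson correlation of log2(value + 1) over 10586 other genes whose mean reached 50 normalized counts. They were Iqgap3 (r = 0.999), Igf1 (0.998) and Naa25 (0.995) for Ccnd1, Mau2 (0.995), Frat1 (0.986) and Papss1 (0.985) for Cdkn1b, and Gpbp1 (0.996), Ccar1 (0.99) and Prkci (0.986) for Rb1. These values describe 6 libraries in 2 groups and share their scaling.

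Exons of several members overlap those of a gene on the opposite strand in GENCODE M21 (mm10), the library kit keeps strand, and whether reads were counted by strand is not given in the sources used here. This applies to Ccnd1 (1100 of 4709 exon bases shared with LTO1), Ccnd2, Ccnd3 (Bysl), Cdkn1c (625 of 2039 shared with Gm44732), Rb1 (Lpar6 and Rcbtb2) and Rbl2 (Aktip and Gm45464), so reads of these stretches could not be attributed. Cdkn1b, Cdkn2c, Cdkn2d and Rbl1 had no such exon overlap.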

How the data were processed

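Single-end reads were quality-trimmed by the authors (Trimmomatic 0.39) and mapped to mm10 (STAR 2.6.0c), as the methods and processing notes state. They removed multi-mapping reads and those on several genes, counted reads over exons with featureCounts 1.6.0 and normalized the counts with DESeq2 1.14.1. The deposited values are a score, namely normalized counts rounded to whole numbers, and not raw counts. The size factor of each library, and so its reads, was estimated from gaps between the rounded values. Within groups, libraries differed by more than counting noise (chi-square over its degrees of freedom, 4.52 to 41.65), so none was counted as a duplicate. The table held 0 value columns without a sample.

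Genes with a mean of at least 5 were compared by limma (version 3.58.1, R version 4.3.3, intensity trend, two-sided) on log2(value + 1), without covariates. The test was tried on simulated data. Fold changes on this scale understate changes of low genes. Ratios within libraries were tested with an exact permutation test. The labels do not say that libraries came from separate mice, so p-values measure the spread between these libraries.

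Members and gene lists were chosen with earlier results of these data known. A gene of the E2F target list is not reported here, and the counts and median of that list leave it out. All 10 members are named, and of the other lists the genes past the threshold with Cdk4, Cdk6 and Cdkn1a; Taf4, Pax7, Myod1, Ly6a, Lum, Lyz2, Mef2c, E2f4, E2f5, Ambra1 and other genes that did not pass were named after their values were seen. Replicate numbers come from the titles. After subtracting group means, libraries of the same number correlated at 0.235, 0.126 and 0.15, against -0.149 to 0.014 for other pairs, so the numbers were taken to pair libraries in an alternative fit with a block. Subtracting group means lowers the other correlations where those of the same number are high. These values therefore cannot show that libraries were paired. Other alternatives were other scalings, filters, pseudocounts and limits, limma-voom on estimated reads, limma treat, the covariate and leaving out each library. Figures were drawn with matplotlib 3.10.9.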

Additional observations from a re-analysis of the deposited data

How the results depend on the processing

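Of the 19 alternatives run for each member, changes of scaling, filter and pseudocount, limma-voom on estimated reads, the covariate and the replicate block each kept 3 members past the threshold, 2 lower and 1 higher. The replicate block changed no call of a member, with adjusted p of 0.00104 for Ccnd1, 0.00169 for Ccnd2 and 0.00115 for Cdkn1c, and moved the number of E2F targets that rose from 0 to 1. The titles do not say that libraries of the same number were paired, so these smaller adjusted p add no support to the calls. The covariate was the mean of the fibro-adipogenic markers, which moved in opposite directions, so that fit does not measure the part of these cells. Stricter limits ended calls among the members and over the whole table, where 12.6% of genes passed in the fit reported. With limma treat, which tests against the 1.3-fold limit, 0 members passed (0 lower, 0 higher; 3 had an unadjusted p under 0.05 there) and 2.34% of all genes did. In the lists, 0 G1 kinases were lower, 1 E2F or DP factor was lower, 0 turnover genes were higher, and 0 E2F targets were lower (unadjusted: 2, 4, 0 and 4). At a fold limit of 2, 1 member passed (1 lower, 0 higher) and 4.58% of all genes did, with 0 G1 kinases lower, 0 turnover genes lower and 0 higher, and 2 E2F targets lower. Where the adjusted p had to be under 0.01, 0 members passed (0 lower, 0 higher; 5 had an unadjusted p under 0.05) and 4.72% of all genes did, with 1 G1 kinase lower, 2 E2F or DP factors lower, 0 turnover genes higher, and 1 E2F target lower. With a minimum mean of 50, 2 E2F or DP factors were lower, since E2f1 and E2f8 were no longer tested.

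When 1 library was left out, 0 to 3 members passed (0 to 2 lower, 0 to 1 higher), and 0 passed without Taf4asKO replicate 1 or 3, where 5 had an unadjusted p under 0.05 in each. Of all genes, 5.14% to 16.6% passed in these fits, with 6.72% without Taf4asKO replicate 1 and 5.14% without Taf4asKO replicate 3. In the same fits 1 to 2 G1 kinases, 2 to 4 E2F or DP factors and 1 to 4 E2F targets were lower, and 0 to 1 E2F targets (1 without control replicate 2) and 0 to 1 turnover genes were higher. These fits have fewer samples. Rbl1 changed sign to -0.20 without control replicate 1, -0.074 without control replicate 3 and -0.016 without Taf4asKO replicate 1, and reached 0.36 without control replicate 2. The difference in the Rbl2 to Rb1 ratio (0.063) was -0.064, -0.052 and -0.089 without control replicate 1, control replicate 2 and Taf4asKO replicate 3, within a range of -0.089 to 0.30. Other ratios kept their sign. Of the members not called, Ccnd3 ranged from -0.31 to -0.15 and Cdkn2c from 0.058 to 0.23 in these fits. Across all alternatives the adjusted p spanned 0.00104 to 0.446 for Ccnd1, 0.00169 to 0.262 for Ccnd2 and 0.00115 to 0.179 for Cdkn1c. Alternatives of named markers were chosen after the data were seen. DESeq2 and edgeR were not run because the values are not counts.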
